A study of Mus musculus with 32 samples.

Results

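The open chromatin of resting haematopoietic stem and progenitor cells (HSPCs) was described from the 4 ATAC-seq peak lists of naive mice given PBS. These lists stand for 8 of the 32 samples of the series, since each of the 4 biological replicates was sequenced as 2 technical libraries and has 1 list. ATAC-seq marks accessible DNA by where a transposase can insert. Autosomal peaks of the 4 lists that overlapped by at least 1 bp were merged, and a merged region counted as recurrent when at least 3 lists had a peak in it. Of 89821 merged regions, 54165 were recurrent, and these are the regions described here.

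The series models leukaemia and remission in transplanted mice with an inducible MLL-AF9 fusion, and the naive PBS mice are its unchallenged controls. Naive mice were C57BL/6J recipients (CD45.2) that had been lethally irradiated and given 200000 marrow cells homozygous for rtTA but without hMLL-AF9 (CD45.1), mixed with 800000 wild-type marrow cells (CD45.1+/2+). From 6 to 8 weeks after transplantation they received doxycycline for 5 weeks, which was then withdrawn for 4 weeks, so that the controls carried the same irradiation, transplant and drug exposure. Marrow was taken 24 hours after an injection of PBS, and the cells sorted were the wild-type donor-derived CD45.1+/2+ cells that were lineage-negative, cKit-positive and Sca1-positive. The cells at rest are thus regenerated, transplanted HSPCs, not those of an unmanipulated animal, and the Lin- cKit+ Sca1+ gate holds stem cells together with multipotent progenitors. The labels call the replicates biological but give no animal numbers, so spreads below are those between lists.

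In blood formation, stem cells keep a set of transcription factors of the GATA, ETS, RUNX, TAL and HOX families in use. Genes of mature lineages become accessible as progenitors commit. Promoters of broadly expressed genes are usually CpG-rich and open in most cells, whereas enhancers, which lie within introns or between genes, carry most of the differences between cell types. Stem and progenitor cells are known for low-level accessibility at genes of several lineages before commitment, called lineage priming.

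The difference between the 2 kinds of gene start in these cells, CpG-rich and open against CpG-poor and often without a peak, can be read in the sequences themselves. The windows shown run from 250 bases before to 50 bases after a start listed by RefSeq on GRCm38.p6, 5′ to 3′ on the gene's strand, with every CpG in capitals. Kit, the stem cell factor receptor, had 20 CpGs in a window of 300 bases, Flt3, a receptor of early lymphoid and myeloid progenitors, had 18, and Irf8, a monocyte and dendritic cell factor, had 38. All 3 windows overlapped a recurrent region. CpG number did not settle this alone. The windows of Mecom and Erg, not shown, had 19 and 16 CpGs and held no peak in any list, though both genes had a recurrent region within 1 kb of an end.
Kit, chr5:75574737-75575036, plus strand: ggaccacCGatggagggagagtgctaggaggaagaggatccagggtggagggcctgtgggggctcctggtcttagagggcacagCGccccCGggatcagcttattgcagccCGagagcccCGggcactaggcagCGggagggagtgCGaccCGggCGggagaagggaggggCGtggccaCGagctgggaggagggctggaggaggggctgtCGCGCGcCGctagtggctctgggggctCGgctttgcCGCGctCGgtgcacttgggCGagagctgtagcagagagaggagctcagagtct
Flt3, chr5:147400440-147400739, minus strand: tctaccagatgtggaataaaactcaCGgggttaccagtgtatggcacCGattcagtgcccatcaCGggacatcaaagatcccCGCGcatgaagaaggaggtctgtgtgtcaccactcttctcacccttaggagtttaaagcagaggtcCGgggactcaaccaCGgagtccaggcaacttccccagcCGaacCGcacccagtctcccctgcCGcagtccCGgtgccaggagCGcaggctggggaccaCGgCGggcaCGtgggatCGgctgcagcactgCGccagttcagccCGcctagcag
Irf8, chr8:120736108-120736407, plus strand: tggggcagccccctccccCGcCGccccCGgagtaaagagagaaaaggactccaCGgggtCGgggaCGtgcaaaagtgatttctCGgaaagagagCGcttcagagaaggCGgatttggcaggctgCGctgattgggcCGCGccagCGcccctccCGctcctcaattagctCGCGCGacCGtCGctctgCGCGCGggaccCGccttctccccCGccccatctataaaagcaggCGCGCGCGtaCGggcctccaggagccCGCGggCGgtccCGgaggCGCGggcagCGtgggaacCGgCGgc
The windows of Mpo, which encodes myeloperoxidase, and of Pf4, which encodes a platelet chemokine, also overlapped a recurrent region with only 2 and 3 CpGs.
Mpo, chr11:87793534-87793833, plus strand: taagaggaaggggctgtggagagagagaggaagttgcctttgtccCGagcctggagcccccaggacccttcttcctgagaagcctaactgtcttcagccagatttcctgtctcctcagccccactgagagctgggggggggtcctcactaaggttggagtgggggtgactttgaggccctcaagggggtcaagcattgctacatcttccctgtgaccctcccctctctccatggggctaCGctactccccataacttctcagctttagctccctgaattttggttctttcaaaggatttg
Pf4, chr5:90772185-90772484, plus strand: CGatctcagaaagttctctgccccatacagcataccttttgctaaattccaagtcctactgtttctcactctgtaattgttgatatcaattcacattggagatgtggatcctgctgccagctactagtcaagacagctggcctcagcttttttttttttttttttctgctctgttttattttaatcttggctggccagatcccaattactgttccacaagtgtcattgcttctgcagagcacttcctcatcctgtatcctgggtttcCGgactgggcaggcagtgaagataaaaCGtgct
The windows of Elane, which encodes neutrophil elastase, and of Gzma, a killer cell granzyme, held no peak in any of the 4 lists and had 6 and 5 CpGs.
Elane, chr10:79886062-79886361, plus strand: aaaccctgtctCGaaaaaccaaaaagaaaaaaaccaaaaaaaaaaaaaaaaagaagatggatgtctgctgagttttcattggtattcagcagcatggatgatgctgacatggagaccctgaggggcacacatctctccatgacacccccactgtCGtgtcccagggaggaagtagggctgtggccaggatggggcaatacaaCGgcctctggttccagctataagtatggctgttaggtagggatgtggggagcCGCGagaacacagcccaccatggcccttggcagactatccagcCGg
Gzma, chr13:113100932-113101231, minus strand: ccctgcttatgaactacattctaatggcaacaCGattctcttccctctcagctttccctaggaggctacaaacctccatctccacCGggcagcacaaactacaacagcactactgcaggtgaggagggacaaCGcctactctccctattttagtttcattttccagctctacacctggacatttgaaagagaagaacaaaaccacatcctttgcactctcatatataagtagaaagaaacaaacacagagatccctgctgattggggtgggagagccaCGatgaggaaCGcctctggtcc

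The lists differed in length. Lists 1 to 4 held 19448, 63241, 80216 and 78184 peaks, a mean of 60272 ± 28249 (SD, n = 4), and their median peak widths were 283, 593, 441 and 436 bp. List 1 stood apart. It was the shortest and its highest -log10 p was 70.8, against 645, 798 and 848 in lists 2 to 4. Read depth cannot be taken from peak lists. List 1 held 30.7% of the recurrent regions, whereas lists 2 to 4 each held at least 99.8%. Regions found in exactly 3 lists numbered 37667, and list 1 was the missing one in 37519 of them, so the recurrent regions are mainly what lists 2 to 4 shared. A further 16498 regions were in all 4 lists, 15725 were in exactly 2 and 19931 in 1, and both of these last sets lay outside the definition. With the lists cut to their 19100 strongest autosomal peaks, the number in list 1, the Jaccard index was 0.613 to 0.621 between list 1 and the others and 0.790 to 0.862 among the others.

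Because the authors' -log10 p values are not scaled between lists, strength was read only as a rank within a list. Rank 1 is the strongest autosomal peak of a list by -log10 p, with tied ranks averaged. The equal-length percentile of a region is 100 for rank 1 and falls to 0 beyond rank 19100 or where a list has no peak. The full-list percentile uses the whole list and exists only where a list has a peak.

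Recurrent regions lay more often away from the ends of genes than at them, except among the regions of all 4 lists, of which 53.4% lay at gene ends. A region was placed at a gene end when it came within 1 kb of either end of a protein-coding gene model, and this held for 13574 regions (25.1%). Another 22426 regions (41.4%) lay inside a gene, away from its ends, and 18165 (33.5%) lay outside genes. The share at gene ends was 53.0% of the recurrent regions held by list 1, and 25.1% in each of lists 2, 3 and 4. Lists 2 to 4 held nearly all recurrent regions, so the definition bound their shares to the 25.1% of the whole. Regions at gene ends had a median width of 1067 bp, against 657 bp inside genes and 633 bp outside. They were in all 4 lists in 64.9% of cases, against 19.4% of regions inside genes and 18.4% of regions outside. Of the regions outside protein-coding genes, 11.3% lay within 1 kb of an end of a noncoding gene model.

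Membership in more lists went with position and strength. The share at gene ends was 53.4% of regions in all 4 lists and 12.6% of those in exactly 3, just inside the definition. Just outside it, the share was 6.26% of regions in exactly 2 lists. The median of the mean full-list percentile was 79.5, 48.7 and 23.5 in these same 3 sets. These values describe the definition and carry no test.

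The accessible regions at gene ends ranked above those elsewhere in all 4 lists. On the full-list percentile their medians were 71.0, 84.6, 87.3 and 87.6 in lists 1 to 4, against 40.6, 48.7, 58.7 and 57.2 for the other recurrent regions. The difference was 31.3 ± 3.17 percentile points (SD, n = 4 lists), higher in 4 of 4 lists. On the equal-length percentile the gene-end medians were 45.2, 49.96, 47.9 and 50.01, against 0 for the others in every list, a difference of 48.2 ± 2.29. The 19100 ranked peaks of a list are too few for the median of the other regions to exceed 0. This second difference could therefore not be negative, and it adds no separate evidence to the first. An exact two-sided paired permutation test over the 4 lists gave p = 0.12 for both measures, which is the smallest p that 4 pairs allow, so the test cannot pass 0.05.

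**Figure D1:**
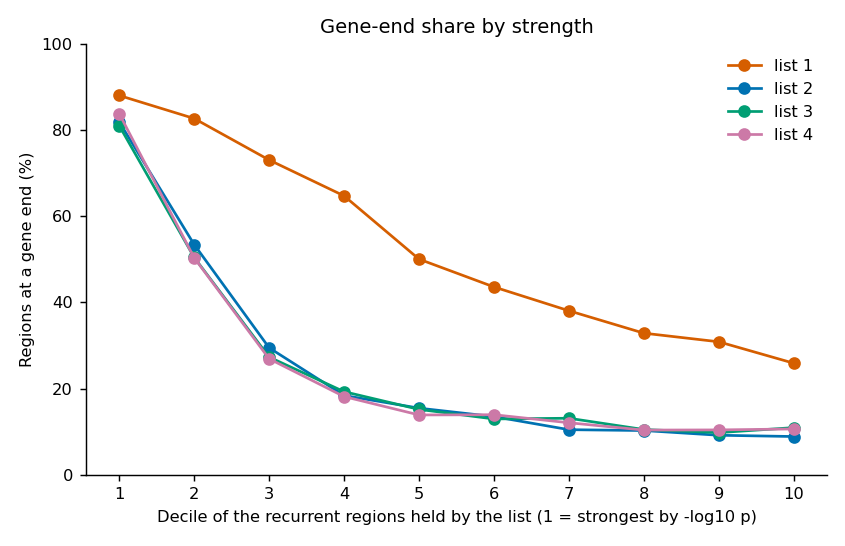
Share of recurrent regions at a gene end (y axis, %) in each decile of the regions a list holds, from the strongest decile by -log10 p (1) to the weakest (10), 1 line per list. The strongest decile averaged 83.7% at gene ends and the weakest 14.1%, and list 1 lies above the others in every decile.

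Ordered by strength, the regions passed from gene ends to the interior of genes and the space between them. In the strongest decile of each list, 83.7 ± 3.12% of recurrent regions were at gene ends, 10.9 ± 2.13% inside genes and 5.39 ± 1.01% outside (SD, n = 4). In the weakest decile the shares were 14.1 ± 7.92%, 47.9 ± 5.94% and 38.0 ± 2.04%. Among the 100 strongest recurrent regions, 84%, 89%, 90% and 89% were at gene ends in lists 1 to 4, and among the 5000 strongest 82.9 ± 1.501%.

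Gene ends are of 2 kinds, and the accessible ones were chiefly starts. RefSeq starts were listed for 16457 of the autosomal genes (79.6%). A recurrent region lay within 1 kb of a listed start in 10723 of these genes (65.2%), against 10.5% of the 13628 other ends of gene models that lay more than 2 kb from any listed start. Of 52483 regions that could be placed, 10179 (19.4%) had their summit within 1 kb of a start, and 58.4% of these summits were upstream of the start or on it. The bin with the most summits ran from 100 bp upstream to the start and held 3855. The median distance of a summit from the nearest start, over all placed regions, was 21031 bp, and 30.8% of regions were more than 50 kb away.

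**Figure D2:**
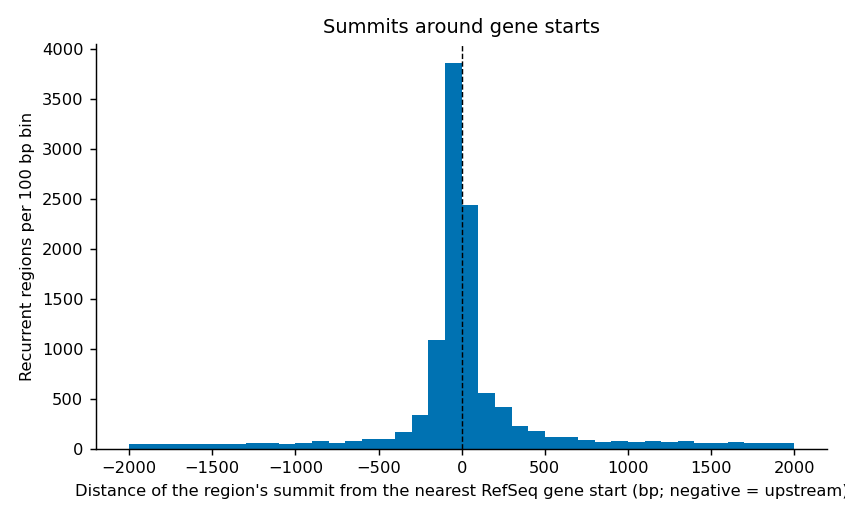
Number of recurrent regions (y axis) by the distance of their summit from the nearest RefSeq gene start (x axis, bp, negative values upstream) in bins of 100 bp. The bin just upstream of the start holds 3855 regions and the bin just downstream 2440.

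The 12 strongest gene-end regions all lay at RefSeq starts, none of them of a gene in the lineage lists. The first by mean equal-length percentile among gene-end regions was at Pkn2 (chr3:142881090-142882680), which encodes a serine/threonine kinase, with ranks 9, 17, 2 and 2 in lists 1 to 4. Next came Ralgapa2 (chr2:146511498-146512383), which encodes a subunit of a GTPase activator of Ral, with ranks 17, 8, 10 and 7. Usp20, which encodes a deubiquitinase, shared its region with BC005624 and ranked 20, 16, 7 and 17. The other 9 were at Napepld, Rad23b, Tsga10, the pair Kdm1b and Tpmt, Fxr2, the pair Retreg3 and Tubg1, Mrpl17, Rnf44 and Parp6, and no rank of the 12 exceeded 108.

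Away from the ends of protein-coding gene models, the strongest regions were largely at other annotated ends. The first, inside the Angptl6 gene model (chr9:20877795-20878777), ranked 5, 3, 3 and 1. It lay at a RefSeq start inside the model, as did the regions in Stag1, which encodes a cohesin subunit, Hint3, Por, which encodes the electron donor of cytochromes P450, and Map4, which encodes a microtubule-binding protein. Of the 12 named, 5 were at such a start and 5 more were within 1 kb of an end of a noncoding gene model, among them Chaserr beside Chd2 (ranks 129, 103, 37 and 31) and D130051D11Rik, with no protein-coding gene within 50 kb. The other 3 of these lay near Cct8l1, Stard13 and Zfp239. The remaining 2 were near neither. One lay 38.4 kb from Ptma (chr1:86487137-86488135) with ranks 32, 36, 14 and 9. The other lay 6.37 kb from Mier3 (chr13:111724962-111726074) with ranks 86, 30, 41 and 42.

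The label of the cells was checked against 5 HSPC genes, and all 5 had a recurrent region at a gene end in all 4 lists. The same held for 9922 of 20665 autosomal protein-coding genes (48.0%) and for 22 of 23 immediate early genes, so the count alone does not identify the cells. Flt3 was the strongest of them. Its start region (chr5:147399890-147401090) ranked 1357, 1527, 1518 and 2724, an equal-length percentile of 90.7 ± 3.32 (SD, n = 4). The start region of Kit (chr5:75574520-75576293) ranked 6185.5, 7741, 5096 and 5151, a percentile of 68.4 ± 6.48. That of Meis1, a homeobox partner of HOX proteins (chr11:19018455-19020013), ranked 12975, 12222, 9759.5 and 10348, a percentile of 40.7 ± 7.96. The 3 genes stood in the same order in every list.

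Runx1 and Erg showed low percentiles at the gene end and higher ones elsewhere in the locus. Runx1, which encodes a factor needed for stem cells to form, had ranks of 11423, 16265, 19528 and 22278 at its first start (chr16:92825257-92826514), so 2 of the 4 lists placed it beyond rank 19100. At its other RefSeq start, 128.6 kb downstream, the region (chr16:92696707-92699038) had percentiles of 40.2, 46.0, 45.9 and 54.3. The strongest Runx1 region lay in the intron 24.2 kb downstream of the first start (chr16:92800726-92802199), with percentiles of 73.0, 79.5, 81.4 and 79.3. Erg, an ETS factor of stem cells and endothelium, had percentiles of 10.5, 0, 0 and 4.33 at its end. Its strongest region by mean lay outside the gene, 16.9 kb from its far end (chr16:95341322-95342225), with percentiles of 52.5, 25.5, 36.5 and 46.8. In list 2 an intronic region (chr16:95438857-95440582) was higher, at 34.6. The strongest regions of Runx1 and Erg were picked from 21 and 22 linked regions on these same percentiles. Their place above the gene end was therefore largely fixed by the choice.

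**Figure D3:**
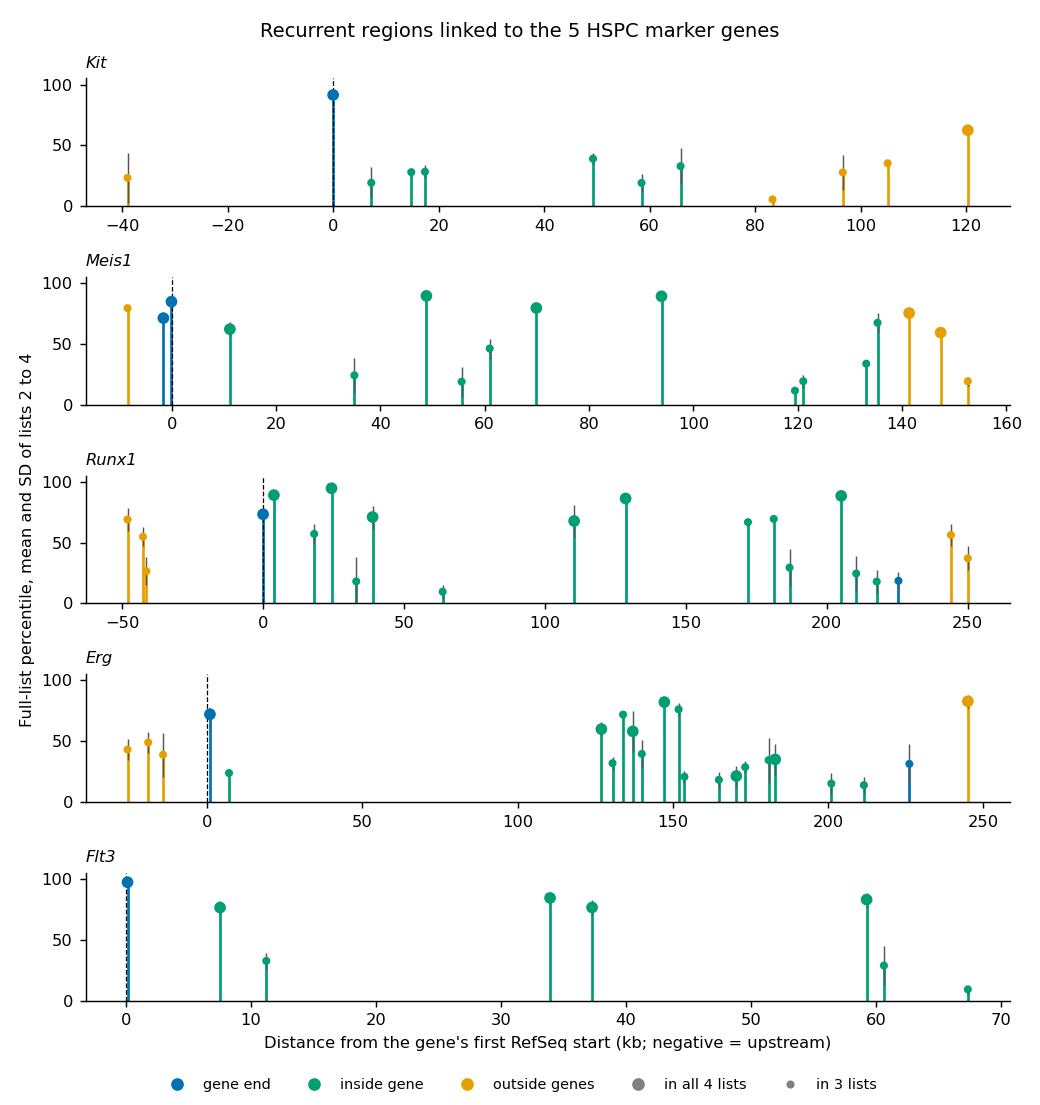
Recurrent regions linked to Kit, Meis1, Runx1, Erg and Flt3, by distance from the gene's first RefSeq start (x axis, kb) and full-list percentile of -log10 p (y axis, mean and SD of lists 2 to 4). Large points are regions in all 4 lists and small points regions in 3. Kit and Flt3 have their strongest region at the start, and Meis1, Runx1 and Erg have theirs away from it.

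The 5 loci differed in how many regions they held. Regions were linked to the nearest gene model within 50 kb, which gives position and not the gene a region acts on. Erg held 22 recurrent regions, Runx1 21, Meis1 17, Kit 12 and Flt3 8. Of the 12 Kit regions only 2 were in all 4 lists, against 8 of 17 for Meis1 and 5 of 8 for Flt3. Flt3 had no linked region outside its gene model, and 4 of the regions in its introns had peaks among the 19100 strongest in every list. Within Meis1, intronic regions 48.8 kb and 93.9 kb downstream of the start had percentiles of 57.5 ± 8.47 and 53.5 ± 12.3, above 40.7 ± 7.96 at the start. Both were above the start in every list, though the ranges over lists overlapped. They were picked from the 17 Meis1 regions for their high values, so this order was partly fixed by the choice.

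The surface marker Sca1, used in the sort, is encoded by Ly6a, and no list had a peak in that gene or within 1 kb of it. The nearest recurrent region (chr15:74988341-74989660) lay 5.22 kb away, was in all 4 lists and ranked 6909, 4154, 3390 and 4738. Ly6a belongs to a family of similar neighbouring genes, where reads may map to more than one copy. Eef2, a translation factor that every cell uses, also had no peak in any list, and so did Rrm2, which makes DNA precursors in dividing cells. The absence of a listed peak is therefore reported only as that, not as closed chromatin.

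Over 20665 autosomal protein-coding gene models, 13398 had a recurrent region at an end and are called open (64.8%). A further 4727 had no peak in any list in the gene or within 1 kb (22.9%), and 2540, with peaks but no recurrent region at an end, were intermediate (12.3%). Median gene lengths were 22222 bp for open genes, 29817 bp for intermediate ones and 4028 bp for genes with no peak. The median equal-length percentile of an open gene's strongest end was 60.9. Lists of lineage genes were read against these shares, as counts and with no test. Counts in all 4 lists are read against 48.0% of all genes. They rest on list 1, and leaving out list 2, 3 or 4 gave 9878 to 9920 open genes, against 13393 without list 1.

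**Figure D4:**
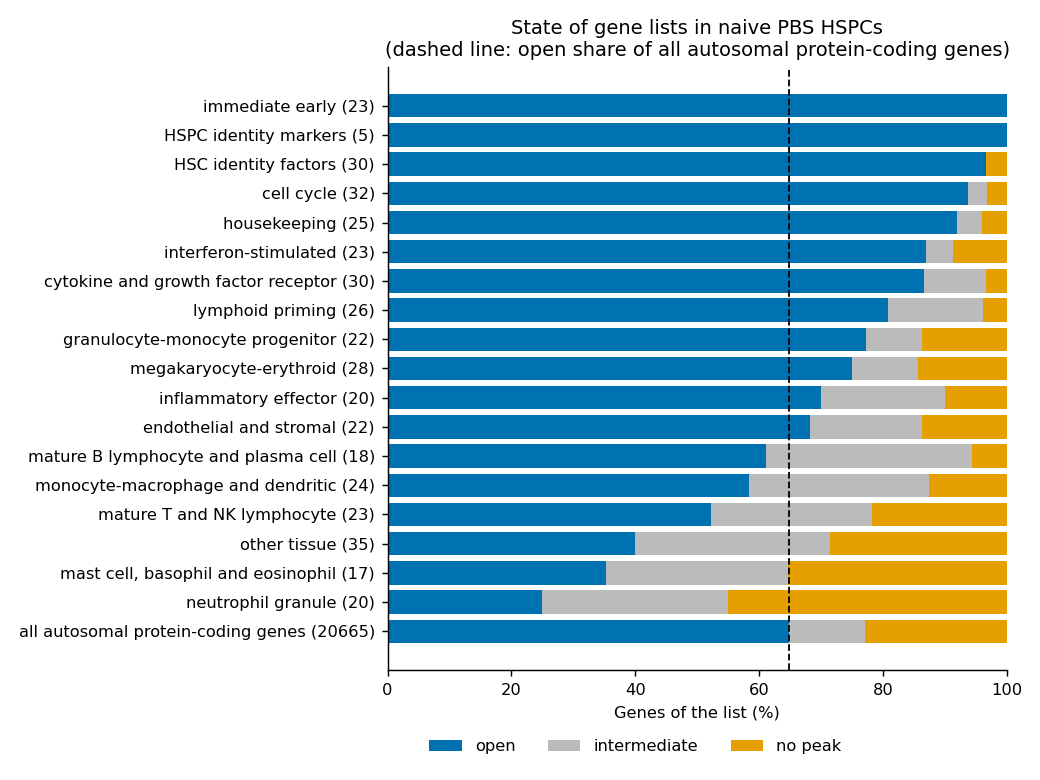
Share of each gene list that was open, intermediate or without a peak (x axis, % of autosomal members, number of members in parentheses), ordered by open share with all genes at the bottom. Open shares run from 100% for immediate early genes and HSPC markers to 25% for neutrophil granule genes, and the dashed line marks 64.8%.

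Genes of stem cell identity were nearly all open, but many weakly. Of 30 such genes 29 were open (96.7%, against 64.8% of all genes), Ly6a being the exception, and the median percentile of those open was 40.5, against 60.9 over all open genes. Etv6, an ETS repressor needed for adult stem cells, had percentiles of 79.1, 94.0, 87.5 and 85.6. Lyl1, a bHLH factor related to TAL1, averaged 75.1 ± 3.29, and Mecom, which encodes the stem cell factor EVI1, 72.5 ± 3.69 (SD, n = 4). Etv6 was above Lyl1 and Mecom in every list. By contrast 8 of the 29 open genes had no end among the 19100 strongest peaks of any list. Gata2, a factor of stem cells and mast cells, was one of them, with end ranks of 27862, 30489 and 30454 in lists 2 to 4 and no peak in list 1. Of the 30 genes 19 were open in all 4 lists, and 29 without list 1.

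HOX genes differed by cluster in strength. All 11 Hoxa genes were open, as were 8 of 10 Hoxb genes, 7 of 9 Hoxc genes and 5 of 9 Hoxd genes. The last 3 shares, 80%, 77.8% and 55.6% of few genes, lay near the 64.8% of all genes. The median percentile of the open members was 32.6 for Hoxa, 5.68 for Hoxb and 0 for Hoxc and Hoxd. No Hoxd gene, 1 Hoxc gene and 3 Hoxb genes had a gene-end peak in list 1, against 6 Hoxa genes. Over all genes, 48.0% had a gene-end region in all 4 lists. Hoxa9, a stem cell and leukaemia factor, had percentiles of 55.5, 49.98, 44.0 and 56.9 at an end of its gene model. Among other factor families, 11 of 12 ETS-type genes were open with a median of 72.7, all 4 RUNX factor and cofactor genes with a median of 48.0, and 4 of 5 GATA genes with a median of 0. These counts, too, are of few genes and are read against 64.8% of all genes.

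Enhancers described for stem cell and myeloid factors were looked for at their known distance from a RefSeq start, with a tolerance of 3 kb. Any listed start of a gene could serve, so distances within a gene are not all from the same start. Whether the regions found are the described elements was not tested. This list was drawn up after the peak lists had been seen. Starts were listed for 8 of the 10 elements, and each of the 8 had a recurrent region in its window, in all 4 lists for 6 of them. Windows at the same distance were also taken over all genes with as many listed starts. Of these genes, 30.5% to 51.97% had a recurrent region in the window, depending on the element, and 8.28% to 14.4% had one in all 4 lists. Because the elements were chosen late and windows with a region are common, the count is a description only. The Runx1 region at 24.2 kb described above is the one nearest the known intronic enhancer at 23 kb. The region 37.4 kb downstream of Cebpa, which encodes the main granulocyte factor of progenitors, had percentiles of 36.2, 47.8, 64.9 and 57.5. Downstream of Tal1, a bHLH factor of stem and erythroid cells, the region at 39.5 kb had 23.9, 65.5, 55.8 and 62.3, and that at 19.3 kb, near the known stem cell enhancer, had 21.6, 25, 27.8 and 13.2. In Gata2 the intronic region at 9.37 kb had 10.4, 40.9, 17.3 and 24.8 and was in all 4 lists, unlike the gene's own end. For the known enhancer at -77 kb, 3 regions lay within the tolerance when counted from another Gata2 start (chr6:88198664). The intronic region was counted from chr6:88193891. The best of the 3 had 22.9, 46.0, 35.5 and 36.1. The region 57.8 kb downstream of an Irf8 start other than the one shown above (chr8:120738639) had 0, 4.93, 10.2 and 0. The Erg window was counted from a start inside the gene (chr16:95530365), not from the first. It held 4 regions, and its best had ranks of 40636, 37207 and 52397 in lists 2 to 4 and no peak in list 1.

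Early lymphoid genes ranged from strong ends to none. Of 26 genes 21 were open (80.8%), 4 were intermediate and 1, Vpreb1, which encodes a part of the surrogate light chain, had no peak. The E-protein gene Tcf4 had percentiles of 97.5, 94.0, 93.7 and 95.9, and Tcf3 had 84.5, 90.9, 84.6 and 85.02. Notch1, the receptor that starts T cell development, averaged 69.7 ± 4.39, and Foxo1, a factor upstream of the recombination genes, 66.1 ± 8.30. Other regulators of the list were spread. Tcf12 had a mean percentile of 63.9, Sox4 60.2, Ikzf1 44.0, Satb1 42.1 and Bcl11a 31.2, whereas some lay at or near the floor. The mean percentile was 0 for Pax5, the B cell identity factor, Tcf7 and Bcl11b, both T cell factors, and Ikzf3, 2.82 for Ebf1, an early B cell factor, 9.18 for Lef1 and 9.40 for Gata3. The intermediate members were Rag1 and Rag2, the recombinase pair, Dntt, which adds bases at antigen receptor joints, and Ccr9, a thymus homing receptor. The median of the open members was 9.40. Of the 26 genes, 10 were open in all 4 lists and 21 without list 1, read against 48.0% and 64.8% of all genes.

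In the granulocyte-monocyte progenitor list, 17 of 22 genes were open (77.3%, against 64.8% of all genes), with a median percentile of 23.9. Id2, a bHLH inhibitor, averaged 77.5 ± 2.84, Egr1, an early response and monocyte factor, 74.7 ± 7.47, Klf4 74.2 ± 10.2 and Cebpa 73.4 ± 2.69. Irf8 had percentiles of 36.6, 57.9, 59.7 and 55.4. Elane, Csf2ra and Fcgr3 had no peak, and Ms4a3 and Hp were intermediate. Mpo was open with a percentile of 7.08 in list 1 and ranks of 57262.5, 53035 and 41503 in lists 2 to 4. Of the 22 genes, 10 were open in all 4 lists, against 48.0% of all genes, and 17 without list 1.

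Neutrophil granule genes had the lowest open share of the 18 lists, and mast cell, basophil and eosinophil genes the next lowest. Over all genes 64.8% were open and 22.9% had no peak. Of 20 neutrophil granule genes 5 were open (25%), 6 intermediate and 9 without a peak (45.0%). Genes of the 2 lists were short, with median lengths of 7361 bp (neutrophil) and 8274 bp (mast cell, basophil and eosinophil), against 17491 bp over all genes. The strongest was Bpi, a bactericidal protein, with percentiles of 47.6, 0, 0 and 0, so that list 1 alone had it among its 19100 strongest peaks. Its ranks in lists 2 to 4 were 35009.5, 26754 and 26297.5. Padi4 had 8.42, 0, 0 and 0, and Ltf and Mmp8 had 0 in all 4 lists. Cd177, Ceacam10, Chil3 and Fpr1 were among those with no peak. Mast cell, basophil and eosinophil genes were open in 6 of 17 cases (35.3%), and Mitf was the one above 50, at 78.9 ± 8.72. Cpa3, Hdc and Gata2 were open with 0 in all 4 lists. The protease genes Cma1 and Mcpt4, the eosinophil peroxidase gene Epx and Fcer1a had no peak. Over all genes 48.0% were open in all 4 lists. Of the 20 neutrophil genes 2 were, and of the 17 mast cell, basophil and eosinophil genes 1 was, so that the order of these shares turned. The counts were the same when list 2, 3 or 4 was left out, and were 5 and 6 without list 1.

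The monocyte, macrophage and dendritic list was open for 14 of 24 genes (58.3%), 6 of them in all 4 lists, against 64.8% and 48.0% of all genes. The median over the 14 was 1.55. Flt3 led it, and next came Ms4a7, with percentiles of 0, 46.7, 54.1 and 49.5. C1qa, C1qb and Marco, expressed in mature macrophages, had no peak.

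Several megakaryocyte and erythroid genes had strong ends, and others of the same list had weak ones. Of 28 autosomal genes 21 were open (75%), 12 of them in all 4 lists, against 64.8% and 48.0% of all genes. The median of the 21 was 34.7. Klf1, the erythroid master factor, had percentiles of 89.0, 90.2, 88.8 and 93.1. Nfe2, a factor of platelet formation, had 89.0, 86.6, 89.4 and 92.7, and Zfpm1, the GATA1 cofactor, 88.7, 87.4, 84.6 and 87.5. Car2, a carbonic anhydrase of red cells, averaged 80.5 ± 5.75. The transferrin receptor gene Tfrc had a mean of 80.3, whereas the ETS factor gene Fli1 had 0, so that factors and products did not separate. The alpha-globin genes Hba-a1 and Hba-a2, near-identical copies, had no peak, nor did Gp6 or Ppbp, and Vwf, Hbb-bs and Slc4a1 were intermediate. Gata1 is on chromosome X and was not examined here.

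Genes of mature lymphocytes gave open shares of 52.2% for T and NK cells and 61.1% for B and plasma cells, against 64.8% of all genes, with no test of the difference. Mature T and NK cell genes were open in 12 of 23 cases, 4 of them in all 4 lists and 12 without list 1, and Cd3g, Cd8a, Cd8b1 and Gzma had no peak. The 2 strongest were Cd3d, at 75.1 ± 4.07, and Lat, at 74.7 ± 10.1, both parts of T cell receptor signalling. At Cd3d the listed start itself held no peak in any list. Mature B and plasma cell genes were open in 11 of 18 cases, near the share of all genes, 6 of them in all 4 lists and 11 without list 1. The leading ones, Prdm1 at 74.5 ± 6.73, Xbp1 at 74.1 ± 11.3, Bank1 at 64.2 ± 8.93 and Irf4 at 55.5 ± 7.83, were for the most part genes with uses outside B cells, while Ms4a1, which encodes CD20, had no peak.

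Genes of cells that the sort should not hold were counted in the same way. Endothelial and stromal genes were open in 15 of 22 cases (68.2%), close to 64.8% of all genes, but the median percentile of those open was 0 and none exceeded 50. Kdr, an endothelial receptor, was the strongest at 32.1 ± 9.06, and Bglap, Col3a1 and Lepr had no peak. Only 3 of the 22 were open in all 4 lists, and 15 without list 1. Genes of other tissues were open in 14 of 35 cases (40%), 5 of them in all 4 lists, with a median of 2.89. At listed starts the count was 5 of 25, so that most of these regions lay at other ends or at starts not listed. Ckm, a muscle kinase, led with 71.4 ± 8.63 although its listed start held no peak. The part of other cells in these counts was not tested. Of 1104 olfactory receptor genes 18 were open (1.63%), and of 352 vomeronasal receptor genes 1, families whose members are much alike, so that reads may map to several copies. Keratin and keratin-associated genes were open in 12 of 109 cases (11.01%).

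**Figure D5:**
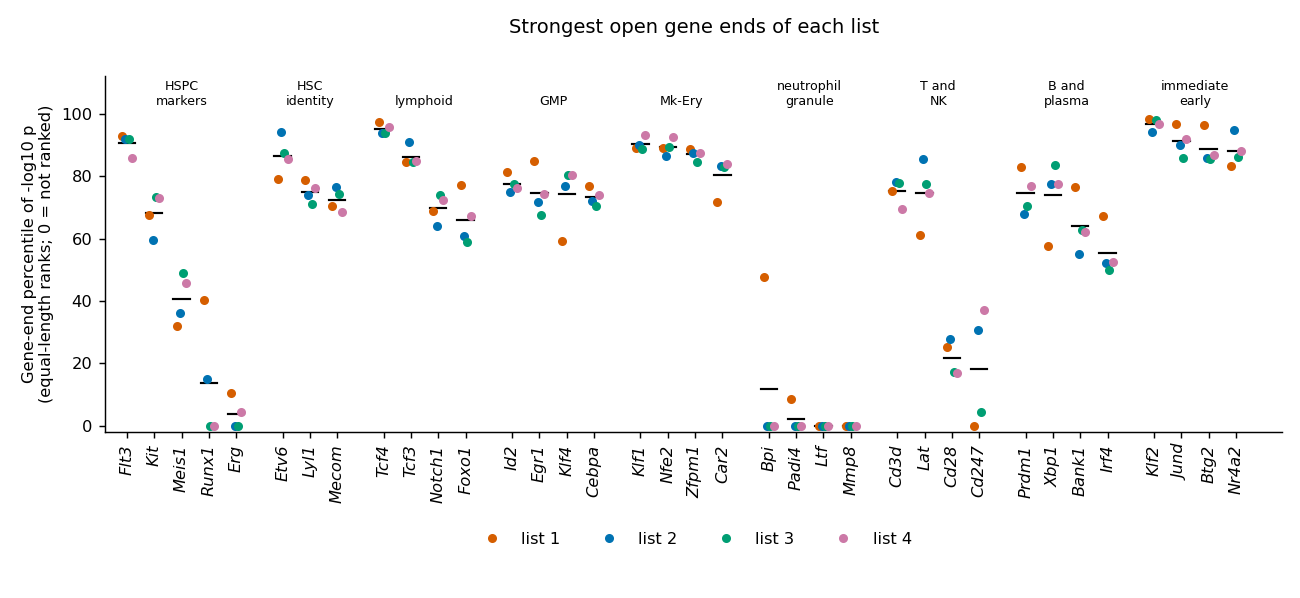
Equal-length percentile of -log10 p (y axis) at the gene ends of the 5 HSPC markers and of up to 4 of the strongest open members of 8 lists, with 1 point per peak list and a bar at the mean. Klf1, Tcf4 and Klf2 lie near the top in all 4 lists, and the neutrophil granule genes lie at 0 in lists 2 to 4.

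Receptors for cytokines and growth factors were open in 26 of 30 cases (86.7%), with a median of 54.3 over the 26. Of the 30, 17 were open in all 4 lists. Over all genes these shares were 64.8% and 48.0%. Tgfbr1, a receptor for TGF-beta, had percentiles of 97.3, 96.0, 96.7 and 97.0, Ifngr1, for interferon gamma, 97.7, 94.8, 93.3 and 95.8, and Ifnar1, for type I interferon, 88.8, 95.8, 95.0 and 97.4. Flt3, given above, came next with a mean of 90.7 and exceeded Ifnar1 in list 1. Other receptors varied. Il6st had a mean of 87.5, Tgfbr2 76.0, Acvr1b 74.8 and Fgfr1 61.0, whereas some had low values. The mean was 3.59 for Tnfrsf1a and 22.3 for Tnfrsf1b, which encode receptors for tumour necrosis factor, and 11.5 for Bmpr1a, which encodes a BMP receptor. Csf2ra had no peak, and Ifngr2, Il1r1 and Il5ra were intermediate, though at Il1r1 a listed start was open.

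Inflammatory genes were accessible at rest to different degrees. Counts here are read against 64.8% of all genes open and 48.0% in all 4 lists. Interferon-stimulated genes were open in 20 of 23 cases (87.0%), 12 of them in all 4 lists. The signalling members Stat2 at 86.6 ± 3.35, Irf1 at 80.9 ± 1.204 and Irf9 at 74.3 ± 11.8 were among the leading ones, whereas Isg15 and Ifit3, both strongly interferon-induced, had no peak and Oasl1 was intermediate. Cytokines and other inflammatory effectors were open in 14 of 20 cases (70.0%), near the share of all genes, 7 of them in all 4 lists, with a median of 6.75. Il6 had percentiles of 53.8, 52.5, 42.1 and 39.3, Ptgs2, an inducible prostaglandin enzyme, averaged 52.5 ± 6.09, and Il1a and Ccl5 had no peak.

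Immediate early genes, which respond within minutes to stimulation, were open in 23 of 23 cases, with a median of 70.0. Over all genes 64.8% were open, with a median of 60.9. Klf2 had percentiles of 98.5, 94.3, 98.0 and 96.7, Jund averaged 91.2 ± 4.63, Btg2 88.6 ± 5.21 and Nr4a2 88.1 ± 5.03. Of the 23, 22 were open in all 4 lists, against 48.0% of all genes.

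Cell cycle and housekeeping genes gave the upper end of the scale, read against 64.8% of all genes open and a median of 60.9. Cell cycle genes were open in 30 of 32 cases (93.8%) with a median of 74.5, led by Ccna2 at 98.3 ± 0.593, Mcm4 at 95.3 ± 1.505, Pcna at 95.1 ± 0.720 and Ccne1 at 95.1 ± 2.09. Housekeeping genes were open in 23 of 25 cases (92.0%) with a median of 74.3, and ribosomal protein genes in 70 of 76 (92.1%) with a median of 78.7. Proteasome subunit genes were open in 34 of 38 cases (89.5%) with a median of 78.8. An open end does not measure expression.

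Some genes held many accessible regions. Of the recurrent regions, 49233 (90.9%) could be linked to a gene within 50 kb, and 15111 genes had at least 1, with a median of 2. At least 10 were linked to 758 genes and at least 20 to 83. Pde4d, a cyclic AMP phosphodiesterase, held 49 over 1302 kb, or 3.76 per 100 kb. Gse1 held 47 over 352.9 kb, or 13.3 per 100 kb. Arid1b, a chromatin remodelling subunit, and Foxp1, a forkhead factor of lymphocytes and stem cells, held 40 each. They were followed by Hivep3 and Prkce with 33, Nav2, Sgms1 and Zfhx3 with 32 and Snx29 with 30. All 10 are genes of more than 267 kb.

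Open starts were rich in CpG. Over 16457 genes, the window around the first listed start overlapped a recurrent region in 9979 genes (60.6%) and no peak in 6117. Median CpG number was 22 in open windows and 3 in windows without a peak, and median GC content 62.0% and 47.0%. Among open windows, the median CpG number was 15 where no list ranked the region in its 19100 strongest peaks and 25 where the mean percentile was above 75. Open windows of immediate early genes had a median of 27 CpGs (n = 17), those of stem cell identity genes 14 (n = 19) and those of interferon-stimulated genes 6 (n = 16).

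Letters bound by several factor families differed in their share between open windows and windows with no peak. Each motif was searched on both strands in windows of 300 bases, and a match describes letters, not binding. The ETS letters CCGGAAGT were in 8.19% of open windows, 1.23% of windows with no peak and 5.46% of all windows. The SP and KLF letters GGGCGGGG were in 35.8%, 6.24% and 24.3%, the NRF1 letters GCATGCGC in 5.33%, 0.997% and 3.66%, and the cyclic AMP response letters TGACGTCA in 3.43%, 0.801% and 2.42%. All 4 runs of letters hold a CpG, and open windows had more CpGs. The GATA letters AGATAA were in 5.60% of open windows, 16.7% of those with no peak and 9.87% of all, and the RUNX letters TGTGGTTT in 1.12%, 2.68% and 1.74%. The AP-1 letters TGANTCA were in 4.50%, 11.4% and 7.17%. The interferon regulatory factor letters AANTGAAA were in 3.99% of open windows and 9.60% of those with no peak, the MEIS letters TGACAG in 16.2% and 22.1%, and the C/EBP letters TTGCNNCAA in 1.44% and 2.40%. The PU.1-type letters GAGGAAGT were in 2.96% and 3.53%, the CTCF-type letters CNAGNNGGC in 30.2% and 13.4%, and the NF-Y letters CCAAT in 37.7% and 41.0%. The E-box letters CAGCTG were in 14.6% and 16.0% and CAGATG in 10.9% and 21.0%. The Meis1 window, shown here with its matches in capitals since it carries the ETS letters (on the minus strand of the window, 13 bases before the start), also holds a CTCF-type and an NF-Y match.
Meis1, chr11:19018920-19019219, minus strand: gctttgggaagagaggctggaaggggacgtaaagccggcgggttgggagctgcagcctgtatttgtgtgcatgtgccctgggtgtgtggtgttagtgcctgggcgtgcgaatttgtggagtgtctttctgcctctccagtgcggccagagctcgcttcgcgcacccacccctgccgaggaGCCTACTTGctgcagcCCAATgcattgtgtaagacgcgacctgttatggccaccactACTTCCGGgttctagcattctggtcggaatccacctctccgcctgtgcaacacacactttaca

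MicroRNA hairpins were called open by a region near the hairpin itself. Their share is therefore not comparable with that of protein-coding genes, which was taken at gene ends. Of 919 autosomal hairpins listed by RefSeq, 195 had a recurrent region within 1 kb (21.2%), and 668 had no peak (72.7%). Of 31 named for roles in blood or in other tissues, 25 were found, of which 5 were open, 1 intermediate and 19 without a peak. The hairpins of miR-142, a miRNA of all blood lineages, miR-155, linked to immune activation, and miR-196b, in the Hoxa cluster, were open with percentiles of 0 in all 4 lists, and so was the brain miRNA miR-9. That of miR-10a, in the Hoxb cluster, was open through a region beyond the hairpin (chr11:96318183-96319414), which is the gene-end region of Hoxb4, with percentiles of 18.98, 39.0, 15.5 and 18.3. The hairpin of miR-10b, in the Hoxd cluster, had no peak. Both mature 5p forms carry the same seed (bases 2 to 8, in capitals). Those of miR-125a and miR-126a, known in stem cells, had no peak. Since a hairpin can be far from the start of its primary transcript, no peak there says nothing of the promoter.
mmu-miR-142a-3p: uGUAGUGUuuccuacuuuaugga
mmu-miR-155-5p: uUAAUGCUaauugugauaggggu
mmu-miR-196b-5p: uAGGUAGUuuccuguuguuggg
mmu-miR-10a-5p: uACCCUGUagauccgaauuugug
mmu-miR-10b-5p: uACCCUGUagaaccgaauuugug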

How the data were processed

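ATAC-seq peak lists of 4 biological replicates of naive PBS HSPCs were used, and the lists of the other groups were not used here. Per the submitters' processing notes, FastQC, Trim Galore, BWA, Picard and MACS3 were used, with no versions, on GRCm38, and filters on reads or regions are not given in the sources used here. Per the labels' protocols, cells were treated by Omni-ATAC, and a Chromium GEM V3 chemistry is also named. Technical libraries of a replicate share 1 list. The deposited fold enrichment of a peak is the authors' ratio of summit to background, and the deposited -log10 p-value and -log10 q-value are also the authors' own. The lowest -log10 q in a list was 1.30 to 1.33.

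Peaks on the 19 autosomes were merged and ranked as described above with Python 3.11.15 and pandas 2.3.3, in code tested on simulated data. Gene models and starts were RefSeq, GRCm38.p6. No p-value across regions was computed. The 18 gene lists, 12 families and 15 motifs, and the regions themselves, were chosen with earlier results of these data known. Genes named were, by rule, the 12 strongest regions at gene ends and the 12 away from them, the 5 markers, the 10 genes with most linked regions, and per list up to 4 open members with the highest percentile, up to 4 without a peak in alphabetical order, and intermediates where a list held 5 or fewer. Others were named after their values were seen, and some genes that the rule names are not reported here. Alternatives were equal-length lists, a -log10 q of at least 5, 50% overlap, all 4 lists, windows of 250 bp either side of summits, each list left out, gene ends of 500 and 2500 bp, other rankings and, added after seeing the data, RefSeq starts. Depth is unknown, so no interval is given. Starts on chromosome 18 were not used here.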

Additional observations from a re-analysis of the deposited data

Results flagged for a closer look

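Values of 4 lists were screened for 1 list far from the other 3, in 96 sets of 4, and 17 (17.7%) stood out, where chance gives about 1 in 20. List 1 was the distant one in 13 of the 17. It had 53.0% of its recurrent regions at gene ends, 26.6% inside genes and 20.4% outside, against 25.1%, 41.4% and 33.5% in the other lists. Lists 2 to 4 each held at least 99.8% of the recurrent regions, so the definition set their agreement in these shares. Almost any difference in list 1 would thus have been flagged there. List 1 ranked Parp6 at 108, against 6 to 7. Percentiles in list 1 were higher than in the others at Bpi (47.6, against 0), Padi4 (8.42, against 0), Irf4 (67.1, against 49.9 to 52.6) and Btg2 (96.4, against 85.5 to 86.8). They were lower at Ms4a7 (0, against 46.7 to 54.1), Car2 (71.9, against 83.0 to 83.8), Saa3 (44.4, against 64.3 to 65.6), Irf9 (56.7, against 78.7 to 81.4) and Apoa1 (21.2, against 58.3 to 62.2). List 2 ranked the region near Zfp239 at 22, against 143 to 165, and Tcf3 at a percentile of 90.9, against 84.5 to 85.02. List 4 gave 85.7 at Flt3, against 92.0 to 92.9, and 94.1 at Pcna, against 95.4 to 95.6. Peaks on chromosome X, which the account above leaves out, numbered 348 in list 1 and up to 1629 in the others.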

How the results depend on the processing

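The counts turned on list 1. With lists cut to equal length, 17098 regions were recurrent, 52.6% at gene ends, and 16498 (53.4%) were in all 4 lists. Leaving out each list in turn and requiring the other 3 gave 16500 to 54017 regions, 25.1% to 53.4% at gene ends, and 9878 to 13393 open genes. Leaving out list 1 gave 54017 regions, 25.1% and 13393 genes. The percentile difference between gene-end and other regions, 48.2, was above 0 throughout. It was 32.6 with equal-length lists, 20.03 at a -log10 q of at least 5, 35.1 in all 4 lists, 34.6 to 36.5 with a list left out, 54.1 and 32.4 with gene ends of 500 and 2500 bp, 23.4 by fold enrichment and 31.3 by full-list ranks. In the main setting, with gene ends of 500 bp and by fold enrichment, the median of the other regions was bound to be 0, which fixed the sign. Of the 18 lists, 12 had an open share above that of all genes, 7 in all 4 lists and 7 to 12 with a list left out. Counts of single lists changed by more than 1.5 times in 76 of 216 recomputations. With RefSeq starts in place of gene ends, added after seeing the data, 10723 genes were open and 9 lists exceeded all genes. For the NF-Y letters, the share of open windows minus that of windows without a peak was 0.50 percentage points with equal-length lists, against -3.26 points with the full lists. Over the 15 motifs, this difference moved by at least the SD of the list shares in 79 of 135 recomputations and changed sign in 1. Percentiles of the strongest regions and of the 5 marker gene ends moved by at least their SD between lists in 59 of 174 recomputations. By fold enrichment 28 of 29 moved. The cause of these shifts was not tested. Depth is unknown, so a missing peak in list 1 cannot be told from low coverage. No paired analysis was possible because only 1 group was used, so that no other group shares its replicate numbers. The paired test in the report is of another kind and compares 2 kinds of region within each list.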
